A study of Mus musculus with 8 samples.

Results

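The 36 genes described here encode the enzymes of cholesterol synthesis, the regulators of sterol response element binding proteins (SREBPs), lipoprotein receptors, intracellular sterol carriers, and the liver X receptors (LXRs) with the efflux genes they control. They were taken by symbol from a fixed list, drawn up with earlier results of these data known, and all 36 were found among the 31610 genes counted. Their RNA was counted in lung endothelial cells of C57BL/6J mice, purified by fluorescence-activated sorting. Of the 8 libraries, 4 came from the control AAV treatment and 4 from the nANGPTL4 AAV treatment. An AAV is an adeno-associated virus used to carry a gene into tissue, and both groups received such a vector. The labels name no promoter, serotype, dose, time, age or sex, and the sample titles of the second group read NT Treated, which the labels do not explain, so its identity rests on the treatment field. Each library is 1 biological replicate, per the design text.

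A cell obtains cholesterol by building it from acetyl-CoA through mevalonate and squalene, or by taking up lipoproteins. When membrane sterol is scarce, SCAP escorts SREBP from the endoplasmic reticulum to the Golgi, where it is cleaved and released to switch on the synthesis and uptake genes. When sterol is ample, INSIG proteins hold SCAP back, and oxysterols activate LXRs, which raise efflux transporters. ANGPTL4 inhibits the lipase that frees fatty acids from circulating triglyceride at the capillary wall. The name nANGPTL4 is commonly used for the N-terminal fragment of that protein, though the labels do not spell it out. The comparison asks whether sterol genes of lung endothelial cells differed between the vectors.

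None of the cholesterol genes was called. All 36 passed the filter on low counts, and 0 passed at an adjusted p under 0.05 (edgeR quasi-likelihood test, Benjamini-Hochberg adjustment over all 18874 genes tested), where 0.138% of all tested genes were called. An unadjusted p under 0.05 was found for 3 members, Msmo1, Ggps1 and Srebf2, all with negative fold changes (nANGPTL4 AAV minus control AAV). That is 8.33% of the members, beside 10.3% of all tested genes with a negative value and such a p, and 0 members against 7.35% of genes with a positive value (17.6% of genes in either direction). Of the 30 members with a mean log2 CPM above 3, 10% had such a p with a negative value, beside 18.2% of the 9256 genes above that level. With a positive value it was 0 of these members, beside 4.26% of those genes. DESeq2 called 1 member, Msmo1, where it called 5.07% of all genes, and 3.43% with a negative value. Counts in bulk cells cannot tell less RNA per cell from fewer cells of a type.

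The 95% interval of the fold change lay within a 1.5-fold difference in either direction for 35 of the 36 members, including all 19 synthesis enzymes. The exception was Vldlr, the least abundant member. Fold changes on the log2 scale ran from -0.19 to 0.16, with a median of -0.01 and 24 of 36 negative. Over all tested genes the median was 0.01, and over the 9256 with a mean log2 CPM above 3 it was -0.03, with 62.5% negative. With library size alone in place of TMM scaling, 15 members were negative and their median was 0.04, while that of all tested genes was 0.05, so the split of signs turned with the scaling.

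**Figure D1:**
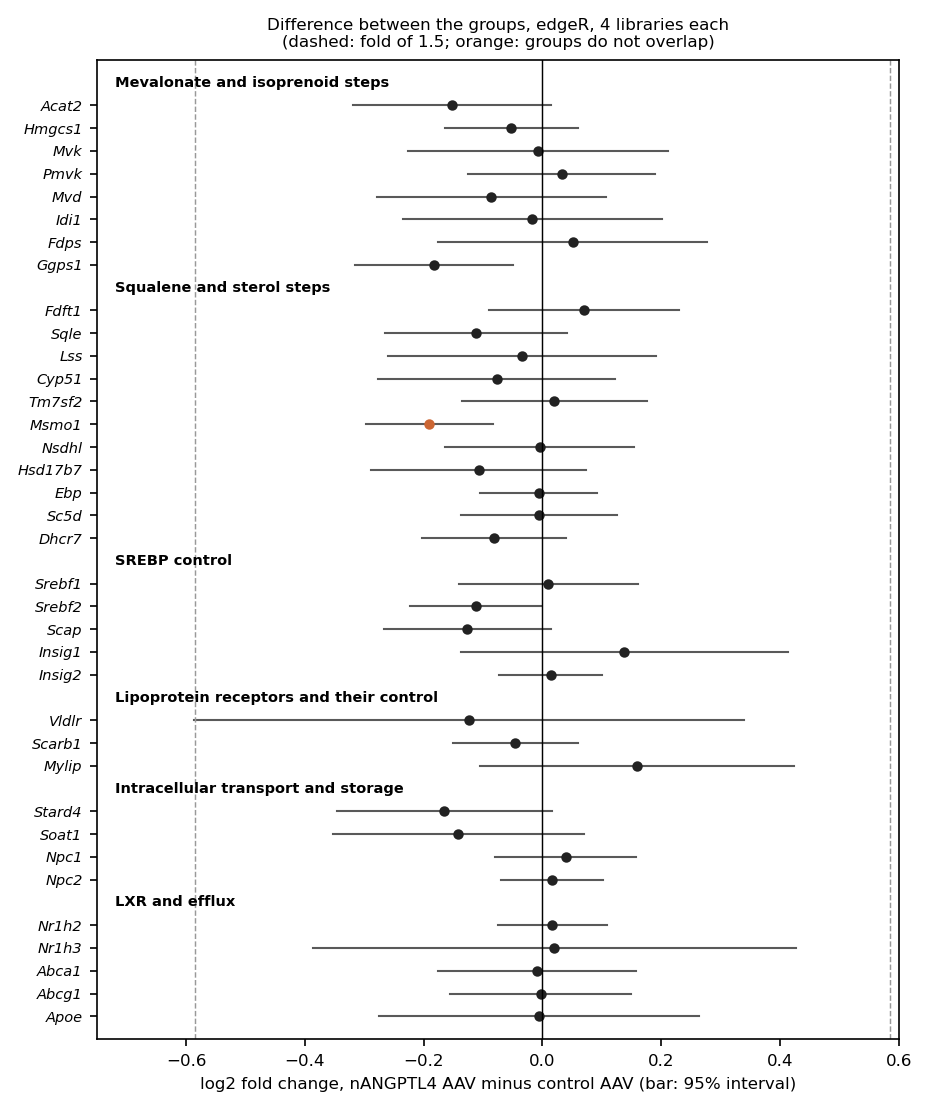
Log2 fold change (horizontal axis, nANGPTL4 AAV minus control AAV) of the 36 genes, grouped by role, with 95% intervals from the edgeR fit over 4 libraries a group; dashed lines mark a 1.5-fold difference. The interval of Msmo1 runs from -0.30 to -0.08, and Vldlr has the widest.

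Levels are given as CPM, the count of a gene scaled to the size of its library with TMM factors. The libraries behind these values held 83183122 to 114337333 counts. All 13 endothelial markers passed the filter, and their summed level was 22030 to 22690 CPM under control AAV and 21030 to 21990 CPM in nANGPTL4 AAV, groups that did not overlap although 0 of the 13 were called. Of 17 macrophage and monocyte markers 11 stayed under 0.5 CPM in every library, as did 6 of 6 neutrophil and 9 of 12 lymphocyte markers. The 9 markers of other epithelial cells summed to 271.6 to 372.4 CPM and 376.7 to 413.2 CPM. Of them 7 had positive fold changes and 1 was called, Scgb3a2, at 0.257 to 0.952 CPM over the 8 libraries. Hopx alone made up 213.6 to 270.3 CPM under control AAV and 259.8 to 291.9 CPM under nANGPTL4 AAV, and its groups overlapped. The 12 lymphocyte markers summed to 2.04 to 2.62 CPM and 2.75 to 6.16 CPM. The part of these differences in the values of the cholesterol genes was not tested. The mouse gene Angptl4 was at 3.34, 2.94, 3.88 and 2.87 CPM in control AAV libraries 1 to 4 and 3.89, 6.59, 4.24 and 5.43 CPM in nANGPTL4 AAV libraries 1 to 4, and whether vector reads were counted under it is not stated. It was not called (log2 difference of 0.63, SE 0.17, adjusted p = 0.110 by the edgeR test), although every nANGPTL4 AAV library lay above every control AAV library and DESeq2 called it, with an adjusted p of 0.00901. Lpl (0.08, SE 0.21) and Gpihbp1 (-0.10, SE 0.06) were called by neither.

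Levels were compared between genes as CPM per kilobase of the principal annotated transcript. Scarb1, the receptor for high-density lipoprotein, stood highest at a mean of 212 CPM per kb over the 8 libraries (196 to 226), above 98.7% of tested genes. Nr1h2, which encodes LXR beta, followed at 94.7 CPM per kb (90.8 to 98.5) and Srebf2 at 39.5 (36.2 to 42.7). Npc2 at 32.9 and Apoe at 32.5 CPM per kb did not differ beyond their spread, and the range of Apoe (26.1 to 41.5) also reached into that of Srebf2. The synthesis enzymes spanned from 19.3 CPM per kb for Ebp to 1.17 for Idi1. Vldlr, a receptor for triglyceride-rich lipoproteins, was lowest at 0.236 CPM per kb, above 19.4% of tested genes. With the length of all annotated exons in place of the principal transcript, the first 3 places did not change, and the rank of no member moved by more than 9 places.

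**Figure D2:**
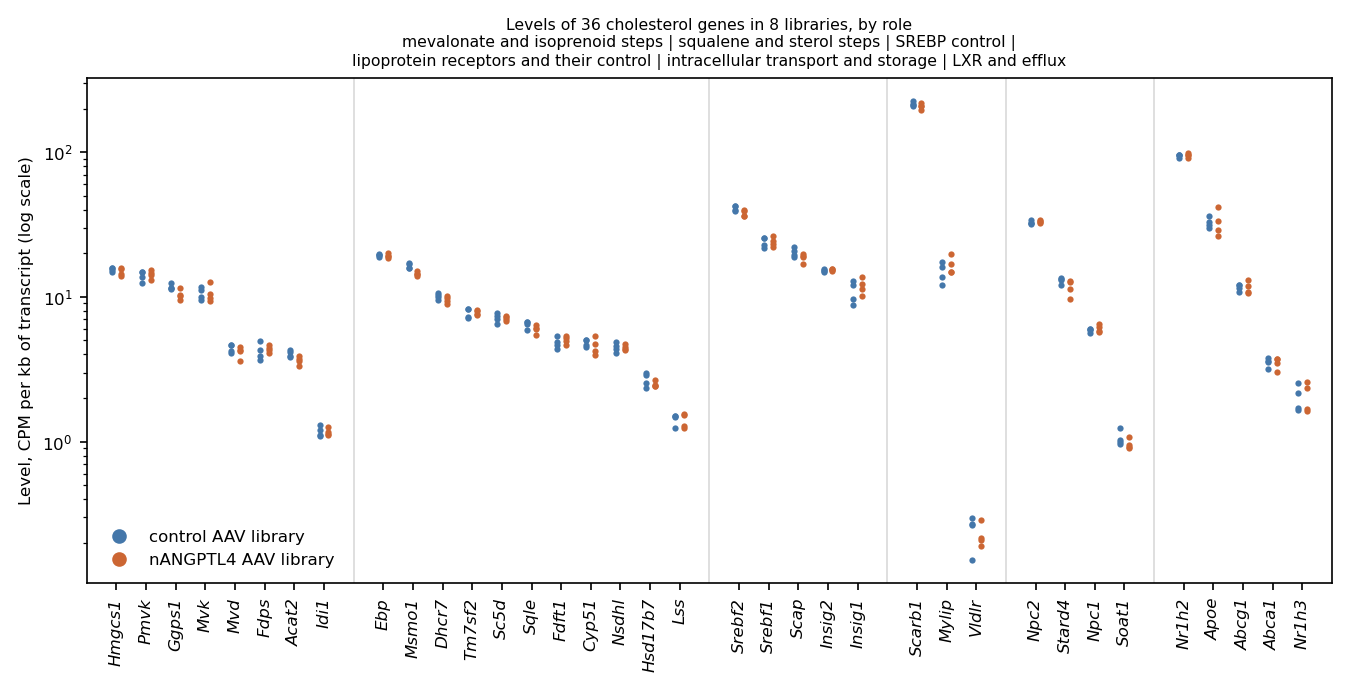
Level of each gene (vertical log axis, CPM per kilobase of transcript) in each of the 8 libraries, blue for control AAV and orange for nANGPTL4 AAV, ordered within 6 roles. Scarb1 lies highest at a mean of 212 and Vldlr lowest at 0.236, and the points of the groups interleave for nearly every gene.

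The enzymes from acetyl-CoA to the isoprenoid diphosphates numbered 8, and 6 had negative fold changes with a median of -0.03 (4 negative with library size alone). Ggps1, spanning bases 14050659 to 14063488 of chromosome 13 in mm10 (minus strand), makes geranylgeranyl diphosphate, which anchors small GTPases to membranes and leaves the sterol branch. It measured 52.8, 48.2, 48.9 and 49.1 CPM in control AAV libraries 1 to 4 and 42.7, 40.0, 43.9 and 48.6 CPM in nANGPTL4 AAV libraries 1 to 4, the order used from here on. Library 4 of the nANGPTL4 AAV group lay within the control range and the other 3 below it. The log2 fold change was -0.18 (SE 0.06, 95% interval -0.32 to -0.05, edgeR adjusted p = 0.157). Of the 31-base stretches of Ggps1 exons, 14.9% recur in other genes, so its count is less certain.

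Acat2, the cytosolic thiolase that joins acetyl-CoA units at the head of the pathway, read 9.37, 8.84, 9.65 and 8.64 CPM under control AAV, against 8.44, 7.5, 8.08 and 8.82 CPM under nANGPTL4 AAV. Library 4 of the nANGPTL4 AAV group lay within the control range and the other 3 below it, and the log2 fold change was -0.15 (SE 0.08, edgeR adjusted p = 0.323), or -0.10 without nANGPTL4 AAV library 2. Acat3 shares 43.8% of the 31-base stretches of Acat2, so reads may be divided between them. Hmgcs1, the synthase that makes HMG-CoA, was the most abundant enzyme of this section per length, at 51.5, 55.2, 52.8 and 54.5 CPM and 54.8, 49.7, 48.1 and 53.8 CPM. The groups overlapped widely (log2 difference of -0.05, 95% interval -0.16 to 0.06, edgeR adjusted p = 0.636). The kinases Mvk and Pmvk stood at -0.01 and 0.03 on the log2 scale, the decarboxylase Mvd at -0.09, the isomerase Idi1 at -0.02 and the diphosphate synthase Fdps at 0.05. Idi1 and Fdps share 27.1% and 27.9% of their 31-base stretches with other genes, and Gm48342 covers 12.1% of the exonic bases of Hmgcs1 on the other strand.

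From squalene to cholesterol, 9 of 11 enzymes had negative fold changes, again with a median of -0.03 (5 negative with library size alone). Msmo1, a monooxygenase that takes part in the removal of methyl groups from sterol intermediates, spans bases 64718139 to 64733792 of chromosome 8 in mm10, minus strand. Its level was 32.6, 35.1, 32.1 and 34.5 CPM under control AAV, against 29.2, 29.3, 28.4 and 30.7 CPM under nANGPTL4 AAV. Every nANGPTL4 AAV library lay below every control AAV library. Among the members this held for Msmo1 alone, or 2.78%, beside 6.99% of all tested genes with the nANGPTL4 AAV group lower and 3.89% with it higher. Among genes with a mean log2 CPM above 3 these shares were 12.6% and 2.2%. The means were 33.5 ± 1.43 and 29.4 ± 0.962 CPM (SD, n = 4 each). The log2 fold change was -0.19 (SE 0.05, 95% interval -0.30 to -0.08) with an edgeR adjusted p of 0.0996, and DESeq2 gave -0.19 with an adjusted p of 0.0211. An adjusted p under 0.1 was reached by 2.5% of all genes in the edgeR test and by Msmo1 only among the members. Over the 17 alternative fits its log2 fold change ran from -0.21 to -0.15 and its adjusted p from 0.0211 to 0.282.

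Sqle, the squalene epoxidase that is a rate-controlling step of this branch, measured 17.8, 18.4, 16.2 and 18.6 CPM under control AAV, against 16.8, 17.8, 14.9 and 16.5 CPM under nANGPTL4 AAV. The lowest value of all was in nANGPTL4 AAV library 3 and the ranges overlapped (log2 difference of -0.11, SE 0.07, edgeR adjusted p = 0.440), and without that library the difference was -0.06. Dhcr7, which catalyses a last reduction to cholesterol, read 28.0, 29.0, 26.8 and 29.8 CPM and 27.5, 28.4, 26.3 and 25.2 CPM. Libraries 3 and 4 of the nANGPTL4 AAV group lay below the control range and libraries 1 and 2 within it (log2 difference of -0.08, SE 0.06, edgeR adjusted p = 0.476).

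The other 8 enzymes of the branch had log2 fold changes between -0.11 for Hsd17b7, a sterol ketone reductase (-0.05 without control library 1), and 0.07 for Fdft1, the squalene synthase. Ebp, the sterol isomerase, was the most abundant per length and among the tightest, at 33.8 ± 0.843 CPM under control AAV and 33.6 ± 1.20 CPM in nANGPTL4 AAV (SD, n = 4 each; log2 difference of -0.01, 95% interval -0.11 to 0.09). Cyp51, the lanosterol demethylase, spread from 15.5 to 21.0 CPM within nANGPTL4 AAV alone, wider than its control range of 17.7 to 19.8 CPM. The remaining values were -0.03 for the cyclase Lss, -0.01 for the desaturase Sc5d, 0.02 for the reductase Tm7sf2 and -0.0046 for the dehydrogenase Nsdhl, all on the log2 scale. Of the stretches of Fdft1, 31.9% recur in other genes, most of them in Ctsb, which overlaps it on the other strand.

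The promoters of the members were searched for letters that their choice did not use. Promoter windows of 250 bases before the start site, from RefSeq on GRCm38.p6, were matched for 29 of the 36 members, 21 of them with a single window. Abcg1, Fdft1, Fdps, Npc1, Scarb1, Sqle and Stard4 had no matched window and were not searched. The CCAAT box (letters CCAAT, searched on both strands), the binding motif of NF-Y, a known partner of SREBP, occurred in at least 1 window of 23 of the 29 members and of 15 of the 16 synthesis enzymes. It occurred for 39.3% of the 12106 tested genes with a window. The GC box (GGGCGG, both strands), bound by Sp1, was in windows of 23 of 29 members, beside 60.1% of tested genes. A stringent form of the sterol regulatory element (TCACNCCAC, both strands) was found for Hmgcs1 only among these 29, beside 1.26% of tested genes. Looser forms of the element were not searched. The matches are of letters and not measured binding.

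Windows of 4 members are shown 5′ to 3′ on the strand of the gene: Hmgcs1 as the member with the stringent element, Ebp as the most abundant enzyme per length, and Srebf2 and Insig1 as the regulator and brake of the pathway. Capitals mark CCAAT boxes, which read ATTGG where the match is on the opposite strand, and the element TCACCCCAC of Hmgcs1. They lie at chr13:119690101-119690350 on the plus strand for Hmgcs1, chrX:8193513-8193762 on the minus strand for Ebp, chr15:82147019-82147180 on the plus strand for Srebf2 and chr5:28071162-28071362 on the plus strand for Insig1, all on GRCm38.p6. Those of Srebf2 and Insig1 stop at 162 and 201 bases, where GENCODE places a first exon of the gene.
Hmgcs1: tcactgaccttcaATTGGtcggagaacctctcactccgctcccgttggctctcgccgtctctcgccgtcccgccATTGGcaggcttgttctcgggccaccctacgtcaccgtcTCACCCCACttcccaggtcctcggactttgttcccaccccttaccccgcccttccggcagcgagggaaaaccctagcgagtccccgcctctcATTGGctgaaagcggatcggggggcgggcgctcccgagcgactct
Ebp: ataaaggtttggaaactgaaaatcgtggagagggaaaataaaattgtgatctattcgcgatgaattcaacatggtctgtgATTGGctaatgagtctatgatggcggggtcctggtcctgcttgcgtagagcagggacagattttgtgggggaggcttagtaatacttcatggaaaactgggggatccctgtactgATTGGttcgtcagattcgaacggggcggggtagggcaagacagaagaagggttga
Srebf2: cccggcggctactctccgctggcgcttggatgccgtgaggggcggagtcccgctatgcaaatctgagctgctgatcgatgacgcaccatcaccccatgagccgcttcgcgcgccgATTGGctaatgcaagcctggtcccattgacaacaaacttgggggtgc
Insig1: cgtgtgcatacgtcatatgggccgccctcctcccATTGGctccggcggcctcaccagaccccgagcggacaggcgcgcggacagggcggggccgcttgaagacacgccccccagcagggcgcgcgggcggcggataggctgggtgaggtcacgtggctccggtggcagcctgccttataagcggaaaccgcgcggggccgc

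Counted back from the RefSeq start, the 3 CCAAT boxes of Hmgcs1 begin at 237, 176 and 45 bases and its sterol element at 137. Ebp holds boxes at 170 and 55 bases, Srebf2 at 135 and Insig1 at 216. Msmo1 also holds 3, at 160, 96 and 55 bases, but GENCODE places 214 of the 250 bases of that window inside an exon of Msmo1, and it is not shown. Members that share the CCAAT letters had fold changes from -0.19 for Msmo1 to 0.16 for Mylip on the log2 scale.

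Srebf2 and Srebf1 encode the transcription factors at the centre of the pathway, SREBP-2 driving mainly cholesterol genes and SREBP-1 mainly fatty acid genes. Srebf2, spanning bases 82147181 to 82205379 of chromosome 15 in mm10 (plus strand), measured 200, 217, 202 and 214 CPM under control AAV, against 203, 199, 184 and 184 CPM under nANGPTL4 AAV. Libraries 3 and 4 of the nANGPTL4 AAV group lay well below the control range, library 2 just below it and library 1 within it. The means were 208 ± 8.49 and 193 ± 9.99 CPM (SD, n = 4 libraries each), giving a log2 difference of -0.11 (SE 0.05, 95% interval -0.22 to -0.0018) with an edgeR adjusted p of 0.277. Srebf1 read 93.3, 110, 97.5 and 110 CPM and 105, 113, 100 and 94.8 CPM, with widely overlapping groups (log2 difference of 0.01, 95% interval -0.14 to 0.16, edgeR adjusted p = 0.955). The counts are totals over each gene, so the isoforms of Srebf1 were not separated.

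Scap, the escort of SREBP, was at 79.8, 94.1, 82.7 and 87.0 CPM under control AAV, against 79.9, 80.8, 83.4 and 70.8 CPM under nANGPTL4 AAV. Library 4 of the nANGPTL4 AAV group was the lowest of the 8 and the other 3 lay inside the control range (log2 difference of -0.13, SE 0.06, edgeR adjusted p = 0.334). The difference was -0.07 without control library 2 and -0.08 without nANGPTL4 AAV library 4. An overlapping gene on the other strand covers 13.2% of the exonic bases of Scap. Insig1, the retention protein that SREBP itself induces, read 32.4, 23.6, 26.0 and 34.6 CPM and 33.2, 37.1, 27.4 and 30.6 CPM. Control libraries 2 and 3 were the low pair and nANGPTL4 AAV library 2 the highest (log2 difference of 0.14, SE 0.13, 95% interval -0.14 to 0.41, edgeR adjusted p = 0.608). Leaving out single libraries gave 0.06 (without control library 2) to 0.23 (without control library 4). Its paralog Insig2 was far steadier, with a coefficient of variation of 2.03% in control AAV and 1.94% in nANGPTL4 AAV against 17.8% and 12.8% for Insig1. Insig2 stood at 41.2 ± 0.837 and 41.6 ± 0.808 CPM (SD, n = 4 libraries each), giving a log2 difference of 0.01 (95% interval -0.07 to 0.10).

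Among the receptors, Scarb1 takes up cholesteryl ester from high-density lipoprotein. It spans bases 125277087 to 125341094 of chromosome 5 in mm10, minus strand. Its level was 531, 568, 545 and 523 CPM under control AAV, against 528, 549, 528 and 495 CPM under nANGPTL4 AAV. Library 4 of the nANGPTL4 AAV group lay below the control range and the other 3 within it (log2 difference of -0.05, SE 0.05, 95% interval -0.15 to 0.06, edgeR adjusted p = 0.664). Vldlr read 1.21, 2.16, 2.10 and 2.37 CPM and 1.5, 2.30, 1.68 and 1.72 CPM, with control library 1 the lowest of all. Its interval of -0.59 to 0.34 around a log2 fold change of -0.12 includes a 1.5-fold difference downwards (edgeR adjusted p = 0.804). The value ran from -0.29 without control library 1 to -0.02 without control library 4. Mylip, an LXR-induced ubiquitin ligase that sends lipoprotein receptors to degradation, measured 53.3, 42.2, 37.1 and 49.6 CPM and 45.2, 51.9, 60.7 and 45.6 CPM. It had the largest positive fold change of the members, 0.16 (SE 0.12, edgeR adjusted p = 0.530), with nANGPTL4 AAV library 3 above and control library 3 below all the rest. It was 0.07 without the former, 0.08 without the latter and 0.25 without control library 1.

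Of the carriers and storage genes, Stard4 shuttles sterol through the cytosol and is itself an SREBP target. It read 67.6, 66.9, 61.2 and 68.9 CPM under control AAV, against 65.1, 57.7, 49.1 and 64.1 CPM under nANGPTL4 AAV, with nANGPTL4 AAV library 3 the lowest of the 8, library 2 next and the others above the control minimum. The log2 fold change was -0.17 (SE 0.08, edgeR adjusted p = 0.324), and -0.08 without that library. Soat1, which esterifies cholesterol for storage, was at 8.09, 10.4, 8.64 and 8.35 CPM and 7.57, 8.98, 7.96 and 7.64 CPM. Control library 2 was the highest and the groups overlapped (log2 difference of -0.14, SE 0.10, edgeR adjusted p = 0.477), and without that library the difference was -0.05. Npc1, which exports cholesterol from late endosomes, measured 31.4, 29.3, 30.9 and 31.4 CPM and 34.0, 30.2, 32.2 and 29.9 CPM (log2 difference of 0.04, SE 0.05, edgeR adjusted p = 0.750), with overlapping groups. Its partner Npc2 kept within 106 to 113 CPM in all 8 libraries, with a log2 fold change of 0.02.

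The 5 LXR and efflux genes had fold changes from -0.0086 to 0.02 on the log2 scale, the narrowest range of the 6 roles, with 3 of 5 negative and, with library size alone, 0 of 5. Abca1, which loads cholesterol onto lipid-poor apolipoprotein, read 36.8, 38.6, 32.4 and 36.5 CPM under control AAV, against 38.2, 38.3, 31.1 and 35.9 CPM under nANGPTL4 AAV. In both groups library 3 was the lowest, and the means were 36.1 ± 2.59 and 35.9 ± 3.40 CPM (SD, n = 4 each; log2 95% interval of the difference -0.18 to 0.16, edgeR adjusted p = 0.966). Abcg1, which passes cholesterol to high-density lipoprotein, was at 67.5, 70.3, 62.9 and 70.6 CPM and 62.8, 76.7, 68.9 and 62.4 CPM. Its groups overlapped fully, with an interval of -0.15 to 0.15. Nr1h2 held 190, 190, 182 and 191 CPM and 197, 192, 191 and 182 CPM (log2 difference of 0.02, 95% interval -0.07 to 0.11, edgeR adjusted p = 0.870). Nr1h3, which encodes LXR alpha, was far scarcer at 4.26, 3.26, 5.0 and 3.35 CPM and 3.27, 5.01, 3.18 and 4.59 CPM. Per length Nr1h2 stood at 94.7 and Nr1h3 at 2.04 CPM per kb, so LXR beta was the main LXR transcript in every library. The interval of Nr1h3, -0.39 to 0.43, was the widest after that of Vldlr.

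Apoe, the ligand for lipoprotein receptors and an LXR target, varied more within nANGPTL4 AAV than between the groups. It read 44.5, 42.0, 50.7 and 46.3 CPM under control AAV, against 40.7, 58.4, 36.8 and 46.8 CPM under nANGPTL4 AAV, so that library 2 of the nANGPTL4 AAV group was the highest of the 8 and library 3 the lowest. The means were 45.9 ± 3.64 and 45.7 ± 9.45 CPM (SD, n = 4 libraries each), giving a log2 difference of -0.01 (SE 0.12, edgeR adjusted p = 0.987) that became -0.13 without nANGPTL4 AAV library 2 and 0.10 without library 3. The summed level of 11 fibroblast and mural markers was 62.7, 120, 133 and 89.6 CPM under control AAV, against 86.9, 163, 74.0 and 119 CPM under nANGPTL4 AAV, highest in the same library as Apoe. Alveolar type 2 markers without Abca3 summed to 48.3, 193, 164 and 153 CPM and 130, 235, 105 and 208 CPM, and macrophage and monocyte markers without Mertk to 24.1, 45.7, 41.2 and 39.9 CPM and 36.3, 57.1, 35.8 and 49.2 CPM. Abca3 and Mertk were left out after their values were seen. Mertk alone held 131.6 to 161.3 CPM and Abca3 130.5 to 147.4 CPM over the 8 libraries, and no marker of these lists was at 0 in every library. Within the nANGPTL4 AAV group Apoe and the 3 sums were lowest in library 3 and highest in library 2, for macrophage and monocyte markers only without Mertk. Within control AAV Apoe was highest in library 3, as was the fibroblast and mural sum only. There Apoe was lowest in library 2, where the alveolar type 2 sum and the macrophage and monocyte sum without Mertk were highest. The 3 sums were lowest in control library 1, for macrophage and monocyte markers only without Mertk. The part of these cells in the Apoe values was not tested.

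**Figure D3:**
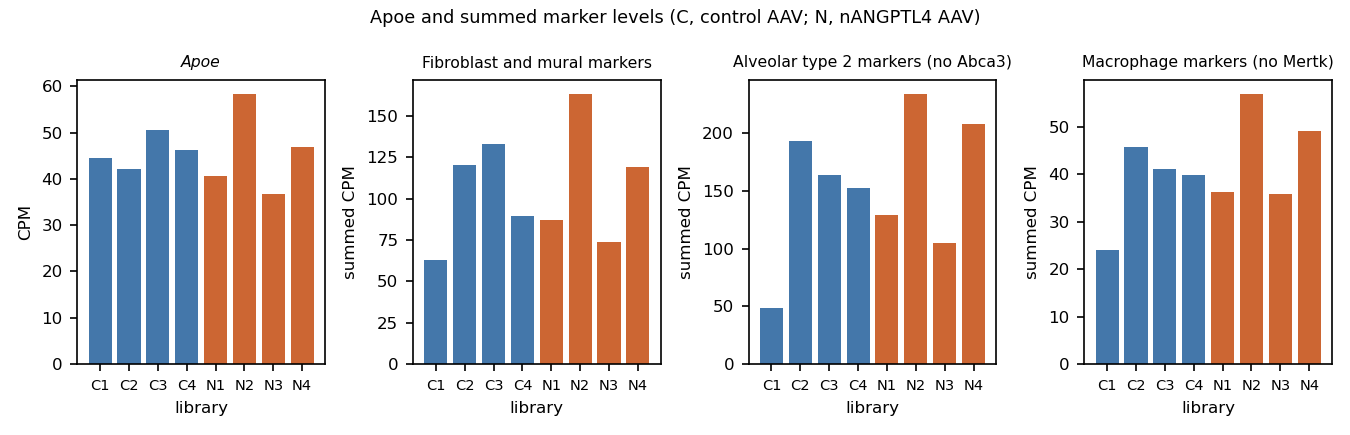
Apoe (CPM) and the summed CPM of 3 marker lists in each library (C1 to C4, control AAV, blue; N1 to N4, nANGPTL4 AAV, orange). Alveolar type 2 markers are shown without Abca3 and macrophage markers without Mertk. In the nANGPTL4 AAV group Apoe and the 3 sums as shown are highest in library 2 and lowest in library 3. With Mertk kept, the macrophage sum of that group is lowest in library 1 and highest in library 4. In the control AAV group Apoe is lowest in library 2, and the 3 sums as shown are lowest in library 1.

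Over the 19 synthesis enzymes the summed level was 387, 391, 373 and 401 CPM under control AAV, against 377, 375, 358 and 375 CPM under nANGPTL4 AAV. Control library 3, at 373 CPM, lay below 3 of the nANGPTL4 AAV libraries, so the sums overlapped. Control library 4 was the highest of the 8 for 6 enzymes, while nANGPTL4 AAV library 3 lay below the gene's mean for 17 of 19 and was the lowest for 5. Over all 36 members nANGPTL4 AAV library 3 was below the mean for 27 and the lowest for 10. Mylip, by contrast, was highest in that library.

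**Figure D4:**
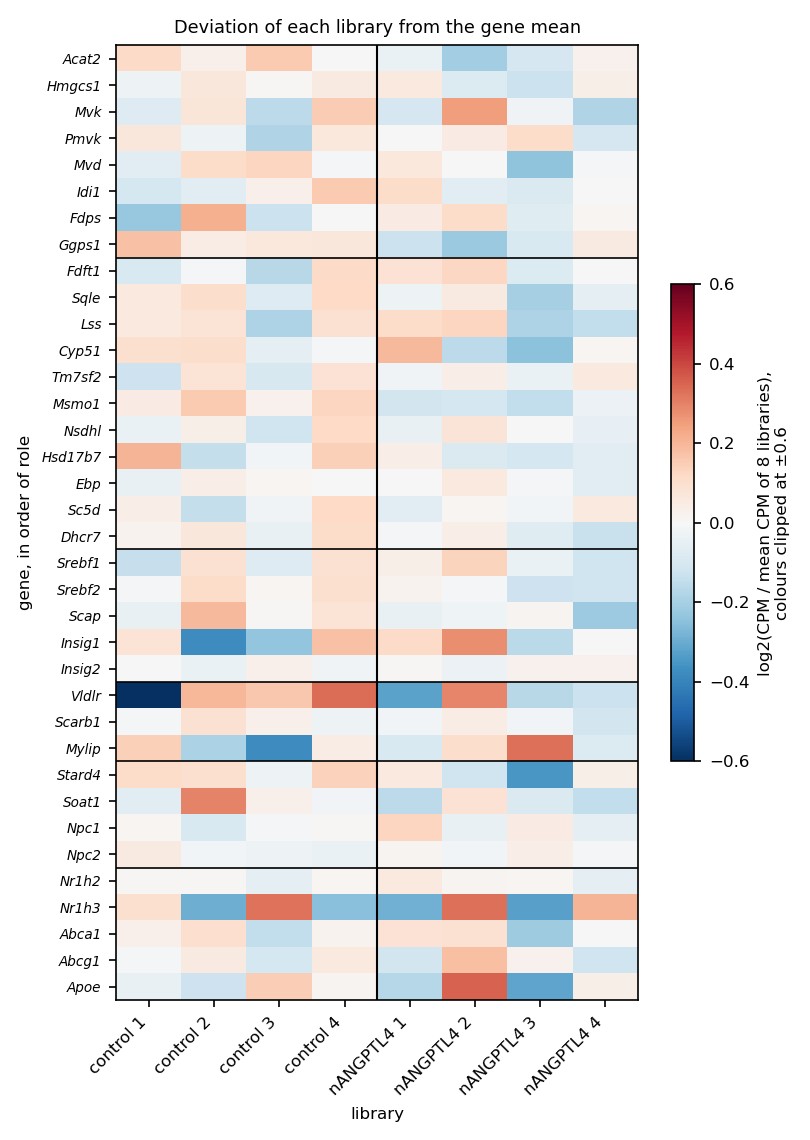
Deviation of each library (columns) from the mean of each gene (rows, in order of role) on the log2 scale, red above and blue below the mean. The column of nANGPTL4 AAV library 3 is below the mean for 27 of 36 genes, and the largest deviations are in Vldlr, Nr1h3, Insig1, Mylip and Apoe.

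A further 60 genes of sterol sensing, isoprenoid use, lipoprotein uptake, sterol transport, oxysterol metabolism and LXR signalling were listed, of which 56 were tested. These lists too were drawn up with earlier results of these data known, so their shares describe the lists and do not measure an enrichment. None of the 56 was called by the edgeR test at an adjusted p under 0.05, and DESeq2 called 4, beside 5.07% of all genes. An unadjusted p under 0.05 was reached by 16 with a negative fold change, or 28.6%, beside 10.3% of all tested genes and 18.2% of those with a mean log2 CPM above 3. With a positive fold change it was reached by 3, or 5.36%, beside 7.35% of all tested genes. By list, the negative ones were 6 of 11 in sterol sensing, 4 of 10 in isoprenoid use, 3 of 13 in sterol transport, 2 of 8 in LXR signalling, 1 of 9 in lipoprotein uptake and 0 of 5 in oxysterol metabolism. In 12 of the 56 every nANGPTL4 AAV library lay below every control AAV library, beside 6.99% of all tested genes and 12.6% of those above that level.

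In the list of sterol sensing, SREBP cleavage and degradation, 9 of 11 genes had negative fold changes, with a median of -0.12 on the log2 scale (-0.07 with library size alone). Erlin1 and Erlin2 form an endoplasmic reticulum complex that restrains SREBP and takes part in the degradation of sterol-pathway proteins. Erlin1 read 21.5, 24.2, 25 and 20.7 CPM under control AAV, against 16.6, 15.9, 18.1 and 19.2 CPM under nANGPTL4 AAV, groups that did not overlap. Its log2 fold change was -0.39 (SE 0.08, 95% interval -0.56 to -0.21, edgeR adjusted p = 0.0691), and DESeq2 gave an adjusted p of 0.00178. Erlin2 was at 110.4 ± 4.15 and 97.4 ± 4.91 CPM (SD, n = 4 each), again without overlap (log2 difference of -0.18, SE 0.05, edgeR adjusted p = 0.108, DESeq2 0.0291). Rnf139, a sterol-regulated ubiquitin ligase, stood at -0.15 (SE 0.05) with overlapping groups, and 26.1% of its 31-base stretches recur in other genes.

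Among the genes that use isoprenoids, Pggt1b, a subunit of the enzyme that attaches the geranylgeranyl group made by Ggps1, measured 48.7, 46.8, 46.4 and 48.6 CPM under control AAV, against 41.7, 42.4, 41.6 and 44.7 CPM under nANGPTL4 AAV. Its groups did not overlap (log2 difference of -0.16, SE 0.04, edgeR adjusted p = 0.107, DESeq2 0.0281). Icmt, which methylates prenylated proteins, stood at -0.12 (SE 0.04) and Nus1, a subunit of the dolichol-making prenyltransferase, at -0.16 (SE 0.05), and neither was called by edgeR or DESeq2.

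In the lists of LXR partners and of sterol transport, Abca7, a lipid transporter, and Smpdl3a, an LXR-induced phosphodiesterase, had groups that did not overlap, at -0.16 (SE 0.06) and -0.11 (SE 0.04). Abca7 stood at -0.11 without control library 2 or nANGPTL4 AAV library 3. The groups of Vapa, a tether of the endoplasmic reticulum for sterol carriers, did not overlap either, at -0.12 (SE 0.05). Gramd1a, a sterol carrier of membrane contacts, stood at -0.15 (SE 0.06) with overlap, and at -0.09 without control library 2. The corepressor Nrip1 was at 0.11 (SE 0.07; 0.07 to 0.16 with single libraries left out) and Acvrl1, which also binds low-density lipoprotein in endothelium, at -0.10 (SE 0.05). Cyp27a1, which makes an oxysterol, read 0.966, 1.06, 1.09 and 0.795 CPM and 1.42, 2.14, 1.06 and 1.63 CPM, with library 3 of the nANGPTL4 AAV group inside the control range (log2 difference of 0.68, SE 0.21, edgeR adjusted p = 0.142, DESeq2 0.0417). Within that group Cyp27a1 too was highest in library 2 and lowest in library 3. So were the marker sums beside Apoe, that of macrophages and monocytes only without Mertk. Within control AAV Cyp27a1 was lowest in library 4, and those sums were lowest in library 1. The part of these cells in the Cyp27a1 values was not tested. Lrp8, Olr1, Soat2, Cyp7b1 and Hsd3b7 were each under 1 CPM in every library. Of these, the receptor Lrp8 stood at 0.74 (SE 0.29) and the esterifying enzyme Soat2 at 1.16 (SE 0.42), both with overlapping groups and an unadjusted p under 0.05. The scavenger receptor Olr1 stood at -0.82 (SE 0.32) without overlap. Cyp7b1 was at -0.22 (SE 0.19; -0.11 without control library 3) and Hsd3b7 at -0.26 (SE 0.17), and 88.8% of the 31-base stretches of Hsd3b7 recur in other genes. None of the 5 was called by the edgeR test, whose adjusted p ran from 0.190 to 0.590.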

How the data were processed

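For each of 31610 Ensembl genes the authors deposited the raw count of reads in 8 libraries. The submitters' processing notes give mm10 as the build, and the aligner, counter, strand setting and annotation are not given in the sources used here. Of the gene identifiers, 31491 were matched to symbols without their version number. Coordinates and lengths came from GENCODE M21 on the same build.

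Low genes were removed by filterByExpr (minimum count 10), and the deposited counts were scaled by TMM and tested with edgeR 4.0.16 in R 4.3.3, using its quasi-likelihood F test with group as the only term. Benjamini-Hochberg adjustment ran over 18874 genes, with an adjusted p under 0.05 called. Intervals are 95% and come from the same fit. Totals ranged from 83183122 to 114337333 counts per library, and 110 to 64255 counts per member and library. The procedure was tested on simulated data. It called 40% of 50 genes changed 1.25-fold and 88% of 50 genes changed 1.5-fold, with 6 false calls among 18674 unchanged genes. The changed genes were drawn above a floor of mean log2 CPM that excludes Vldlr. The same run held 50 genes changed 2-fold and 50 changed 4-fold. Such large changes ease the adjustment of p for the rest, so these shares need not hold for the members. Replicates of a group differed by more than counting error in every pair.

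The members and lists were chosen with earlier results of these data known. All 36 members were eligible for naming. Values in every library were given for any member called or with groups that do not overlap, the 3 with the smallest p per role, and Srebf1, Srebf2, Insig1, Hmgcs1, Sqle, Vldlr, Scarb1, Abca1, Abcg1 and Apoe. Of the other sterol genes, the 3 with the smallest p per list were named, and Angptl4, Lpl and Gpihbp1 as the targeted axis. Scgb3a2, Hopx, Mertk and Abca3 were named after their values were seen. Levels per length used the principal transcript of each gene. DESeq2 1.42.0, limma-voom (limma 3.58.1), other scalings and filters, a replicate block and each library left out were the alternatives.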

Additional observations from a re-analysis of the deposited data

Results flagged for a closer look

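In control AAV library 3, Lss, the lanosterol-forming cyclase, measured 5.81 CPM, apart from the other 3 control AAV libraries at 6.88 to 7.05 CPM. In the same library Nr1h2 measured 181.6 CPM, apart from the other 3 at 190 to 190.9 CPM. Each was further from its group than Dixon's 95% critical value for 4 samples allows. These were 2 of 72 groups tested, where chance gives about 1 in 20. Lss also read 5.81 and 5.96 CPM in nANGPTL4 AAV libraries 3 and 4.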

How the results depend on the processing

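Against 26 genes called over the whole table, upper quartile scaling called 4, library size only 4, a stricter filter on low counts 1, the robust edgeR fit 59, DESeq2 956 and an adjusted p under 0.1 gave 471. Leaving out 1 library called 1 to 2 genes. Of the cholesterol genes 0 were called in each of these except 1, Msmo1, by DESeq2 and 1 at an adjusted p under 0.1, and leaving out any library gave 0 to 0. Of the other sterol genes, DESeq2 called 4 and an adjusted p under 0.1 gave 1. RLE size factors, no filter and limma-voom called 23, 25 and 21 genes in all, and 0 cholesterol genes. Of 612 member values under 17 alternatives, 8 moved by more than 1 SE, and 22 of 36 members kept their sign in all of them. The largest fold change among those that changed sign was 0.05 in size. With the replicate number as a block, 6 genes and 0 cholesterol genes were called. Same-numbered libraries did not deviate together (correlations 0.138, 0.165, -0.254 and -0.308), so the numbers were not taken as a pairing. With 4 libraries a group, differences smaller than the 95% interval of a gene cannot be resolved. Such intervals are printed for some of the genes only. Among the members the widest intervals were those of Vldlr and Nr1h3.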
